A study of Mus musculus with 12 samples.

Results

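Transcripts of 10 genes of mitochondrial shape and mitochondrial DNA (mtDNA) upkeep were followed in ventricular RNA of mice. The genes are the fusion genes Mfn1, Mfn2 and Opa1, the fission genes Dnm1l, Fis1 and Mff, the mitophagy kinase gene Pink1, and the mtDNA genes Tfam, Polg and Polrmt. They were chosen by gene symbol, with no measured value in the choice, and 6 HF-named libraries were compared with 6 con-named libraries. Of the 54949 features of the table, 15114 passed a filter on low counts, and all 10 members were among them, with 459 to 19177 counts per library.

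The study set a mouse model of HFpEF, heart failure in which ejection fraction is preserved while the ventricle fills poorly, against control mice. All 12 libraries came from poly-A RNA of whole ventricles, atria removed, of male wild-type C57BL/6N mice. The model received a high-fat diet together with L-NAME, which blocks nitric oxide synthases, at 0.5 g/L in drinking water from 8 weeks of age for 5 weeks, and the controls received normal diet and water. For each of the 12 samples the labels conflict. Libraries with names HF-1 to HF-6 are titled as controls on normal diet, and libraries with names con-1 to con-6 are titled as HFpEF with the diet and L-NAME. Groups are therefore called HF-named and con-named after the library names, each fold change has HF-named on top, and no group was assigned the treatment here. The labels give 6 samples per group and the design text gives 5. Nothing in them says that libraries come from different mice, so the p-values reflect spread among these 12 samples, which may be technical.

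Mitochondria form a network that is reshaped by fusion and fission. The mitofusins join outer membranes and OPA1 joins inner membranes and holds the cristae, while the GTPase DRP1, the product of Dnm1l, is drawn to outer-membrane adaptors such as MFF and FIS1 and cuts the organelle. Damaged organelles are marked for removal by the kinase PINK1, and each organelle's own genome is packed by TFAM, copied by the polymerase POLG and read by the RNA polymerase POLRMT. Heart muscle cells hold dense rows of mitochondria between their myofibrils, and loss of both mitofusins or of DRP1 in mouse heart is known to cause cardiomyopathy.

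Of the 10 members, 3 passed an adjusted p of 0.05 and 7 did not. Opa1 and Mfn2, which act in fusion, were higher in the HF-named libraries, by 0.24 and 0.20 on the log2 scale, and Fis1, which acts in fission, was lower, at -0.16. Calls come from the quasi-likelihood test of edgeR, adjusted by Benjamini-Hochberg over all 15114 genes, after TMM scaling, which assumes that most genes do not change. Over all genes 13.3% were called in either direction, 8.28% higher and 5.05% lower in HF-named. The estimate lay above 0 for 9 of 10 members and for 47.3% of all genes, and the median log2 fold change was 0.12 for the members and -0.01 for all genes. Changes were small, with log2 fold changes between -0.16 and 0.24. An unadjusted p under 0.05 was found for 7 members, and for 28.6% of all genes (4328). The groups did not overlap for 1 member, Fis1, and for 5.36% of all genes. These are bulk samples, so fewer cells of a type and less RNA per cell cannot be told apart.

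**Figure D1:**
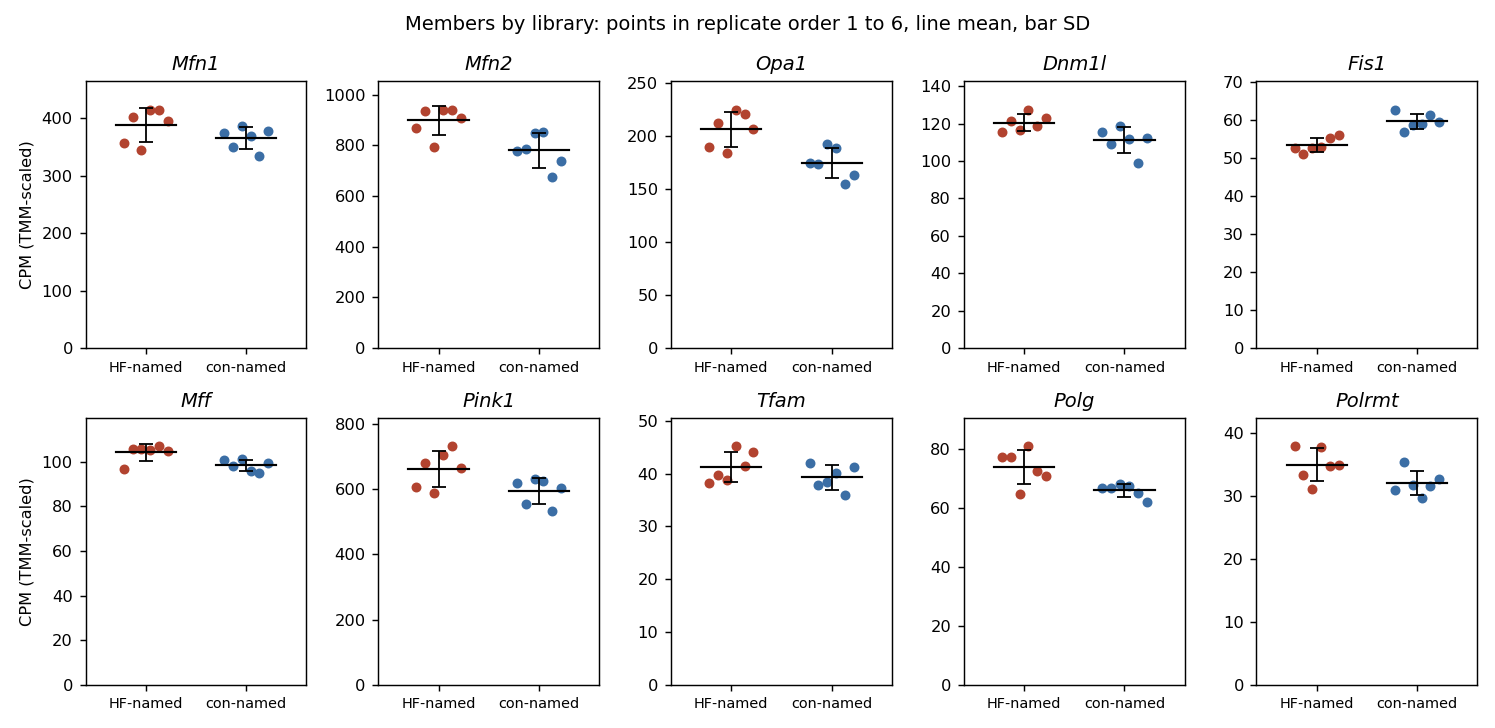
Level of each member in CPM (counts divided by TMM-scaled library totals) in every library, with HF-named on the left and con-named on the right of each panel. Points follow replicate numbers 1 to 6, the line is the mean and the bar the SD, and every axis starts at 0. Opa1 and Mfn2 sit higher in HF-named with some overlap, and Fis1 sits lower without overlap.

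The calls moved with the scaling between libraries. Transcripts encoded by mtDNA took 25.2 ± 1.19% of the counts in HF-named and 22.4 ± 1.10% in con-named libraries (SD, 6 libraries a group, p = 0.00433 by a two-sided exact permutation test). Dividing by library totals alone moved the median over all genes to -0.13 on the log2 scale, against -0.01 under TMM. Without mitochondrially encoded transcripts the median under TMM was -0.02. That fit kept TMM, and library totals were not fitted without these transcripts. The part of the mitochondrial share in the shift under library totals was therefore not tested. Library totals called 20.3% of all genes (483 higher, 2582 lower, so 15.8% higher against 62.1% higher under TMM) and 1 member, Fis1 (-0.27, adjusted p = 0.00148). Estimates above 0 then numbered 6 of 10 members, beside 24.96% of all genes, with a member median of 0.0058. Opa1 kept a value of 0.12 (adjusted p = 0.0996) and Mfn2 of 0.09 (adjusted p = 0.231). Under library totals Mfn1 (log2 fold change -0.03), Mff (-0.03) and Tfam (-0.04) turned below 0. In the authors' deposited table, which called 5.11% of 33183 genes with a p-value, the members called were Opa1 (log2 fold change 0.24, adjusted p = 0.0138), Fis1 (-0.15, adjusted p = 0.0179) and Mfn2 (0.20, adjusted p = 0.0414), and the other 7 were not.

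Markers of ventricular muscle and of other cell types were read beside the members. The cardiomyocyte markers with the most counts were the myosin heavy chain gene Myh6, at 29301 to 35879 CPM in HF-named and 27530 to 32417 CPM in con-named libraries (log2 fold change 0.13, not called), and the troponin T gene Tnnt2, at 6440 to 7976 CPM in HF-named and 7669 to 9888 CPM in con-named libraries (-0.23, called). Fibroblast markers summed to 542.8 to 693.7 CPM in HF-named and 621.9 to 877.9 CPM in con-named libraries, with 2 of 7 called lower. Endothelial markers summed to 535.4 to 854.6 CPM in HF-named and 695.9 to 995.4 CPM in con-named libraries, and macrophage markers to 95.9 to 125.7 CPM in HF-named and 110.6 to 150.4 CPM in con-named libraries, each with 2 of 6 called lower. The most abundant markers of these types had log2 fold changes of -0.35 for Dcn, -0.09 for Col3a1, -0.46 for Kdr, -0.34 for Cdh5, -0.35 for Csf1r and -0.15 for C1qb, of which Dcn, Kdr and Csf1r were called. In the other marker lists, log2 fold changes were 0.20 for Rgs5, -0.03 for Pdgfrb, 0.33 for Hba-a1, 0.34 for Hbb-bs, 0.26 for Nkg7, 0.15 for Cd79a, 0.44 for Acta1, -0.17 for Ckm, 0.20 for Myl4, -0.21 for Nppa and -0.19 for Fabp4, of which Ckm was called. Cardiomyocyte markers summed to 61231 to 68681 CPM in HF-named and 58012 to 65915 CPM in con-named libraries, with 2 of 8 called higher and 3 lower. Mural markers summed to 944.1 to 1137 CPM in HF-named and 776.1 to 968.8 CPM in con-named libraries and had 0 of 5 called by edgeR (3 with an unadjusted p under 0.05, 1 called by limma-voom, 2 by DESeq2), while red cell markers summed to 334.2 to 664.7 CPM in HF-named and 304.3 to 518.2 CPM in con-named libraries, with 1 of 5 called higher. The skeletal muscle list had 1 of 2 tested genes called lower, Ckm, and Acta1 was not called. Its other genes, Myh4, Myh1 and Tnnt3, were not tested. They reached at most 0.623 CPM in HF-named and 0.944 CPM in con-named libraries, so the list does not measure skeletal muscle content. Lymphocyte (3 tested), atrial (2 tested) and adipocyte (1 tested, Fabp4) markers had 0 called by edgeR, limma-voom or DESeq2 and 0 with an unadjusted p under 0.05. The untested markers of fat (Adipoq, Plin1, Cidec and Lep) reached at most 0.181 CPM in HF-named and 0.181 CPM in con-named libraries. Those of atrium (Myl7, Sln) reached at most 1.78 CPM in HF-named and 0.245 CPM in con-named libraries. The part that fibroblast, endothelial, macrophage, mural and red cell markers have in the member results was not tested.

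The promoter windows of the 3 called members are shown here because the text below reads motifs in them. They are RefSeq sequences on build GRCm38.p6, 250 bases before and 50 after a transcript start, in the direction of the gene, and capitals mark the NRF1 core in Opa1 and the ETS core in Fis1. Mfn2 has 3 windows and the one whose start lies 6 bases from the gene start is given.
Opa1 (chr16:29579084-29579383, plus strand): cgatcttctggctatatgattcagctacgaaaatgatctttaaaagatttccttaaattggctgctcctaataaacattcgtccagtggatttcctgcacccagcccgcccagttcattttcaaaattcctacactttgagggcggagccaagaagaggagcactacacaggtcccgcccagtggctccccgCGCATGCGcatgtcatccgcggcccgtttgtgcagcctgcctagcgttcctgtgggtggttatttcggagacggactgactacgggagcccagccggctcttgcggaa
Mfn2 (chr4:147904649-147904948, minus strand): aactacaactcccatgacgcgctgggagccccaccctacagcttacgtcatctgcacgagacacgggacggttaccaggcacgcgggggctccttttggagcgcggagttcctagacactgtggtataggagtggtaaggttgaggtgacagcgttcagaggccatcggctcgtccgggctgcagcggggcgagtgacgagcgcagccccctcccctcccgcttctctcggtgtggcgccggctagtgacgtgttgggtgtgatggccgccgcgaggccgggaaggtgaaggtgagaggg
Fis1 (chr5:136953025-136953324, plus strand): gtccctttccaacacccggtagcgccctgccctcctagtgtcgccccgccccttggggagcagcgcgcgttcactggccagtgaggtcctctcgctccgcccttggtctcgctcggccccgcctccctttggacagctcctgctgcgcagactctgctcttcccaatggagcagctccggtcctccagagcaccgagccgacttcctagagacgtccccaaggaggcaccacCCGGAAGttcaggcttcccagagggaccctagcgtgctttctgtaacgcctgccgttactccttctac

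Motif letters were searched on both strands in every such window of all 10 members, all of which matched a RefSeq window, and the motifs were chosen after the values were seen. The core bound by NRF1, a regulator of nuclear genes for mitochondria (CGCATGCG), was present in Opa1, at position -58 from the start, and in no other member. It was present in 2.07% of 27025 genes. The ETS core read by GABPA (CCGGAAG) was present in 6 of 10 members, Mfn1, Dnm1l, Fis1, Tfam, Polg and Polrmt, and in 9.93% of genes. The shares of genes cover all genes with a window, tested or not, so they are no matched background for the members. In Fis1 the ETS core stood at position -18 of the window shown and at position 19 of a second window, which lies 8802 bases from the annotated start of the gene. In Dnm1l it stood in 1 of 2 windows, at position 12, and that window's start lies 384 bases from the annotated gene start. An ERR half-site (AAGGTCA), the YY1 letters searched (AAGATGG) and an E-box (CACGTG) were in none of the 10 and in 5.38%, 7.28% and 8.09% of all genes. For each motif only the letters given were searched and not other forms of its site. Absence of an NRF1, ETS, ERR, YY1 or E-box site from a member is therefore not shown. No match of one motif overlapped a match of another in these members. A match describes letters only. No relation between a motif and the direction of a member was tested.

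Among the fusion genes, Opa1 (ENSMUSG00000038084, chromosome 16, 29579334 to 29654884 on mm10, the build of all gene positions given) encodes the dynamin-like GTPase of the inner membrane. Its lowest, median and highest values were 183.6, 209.2 and 224.5 CPM in HF-named libraries, against 154.7, 174.0 and 192.0 CPM in con-named libraries. The highest and lowest HF-named libraries were replicates 4 and 3, 4 HF-named libraries lay above all con-named ones, and the groups overlapped. The log2 fold change was 0.24 (SE 0.06, 95% interval 0.105 to 0.38, edgeR adjusted p = 0.0217). Opa1 lost its call without HF-named 4, HF-named 5, con-named 5 or con-named 6, with adjusted p up to 0.0548, so 8 of 12 fits without 1 library called it.

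Mfn2 (ENSMUSG00000029020, chromosome 4, 147873599 to 147904704) encodes a mitofusin that also tethers mitochondria to the endoplasmic reticulum. It had 795.7, 922.5 and 941.5 CPM at the lowest, median and highest HF-named library, against 676.5, 782.6 and 853.6 CPM in con-named. Only 1 HF-named library, replicate 3, lay within the con-named range, and 4 con-named libraries lay below all HF-named ones. The estimate was 0.20 on the log2 scale (SE 0.06, 95% interval 0.07 to 0.34), at an adjusted p of 0.0474 in edgeR. Of the 3 calls it held in the fewest fits without 1 library. It held in 3 of 12 fits without 1 library, those without HF-named 3, con-named 3 or con-named 4, and adjusted p reached 0.106 in the others.

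Mfn1 (ENSMUSG00000027668, chromosome 3, 32529465 to 32579239), the other mitofusin, ranged over 345.1, 398.3 and 414.6 CPM (lowest, median, highest) in HF-named and 334.4, 371.4 and 386.0 CPM in con-named libraries. A total of 4 HF-named libraries lay above all con-named ones, but the lowest HF-named library, replicate 3, fell inside their range. The log2 fold change was 0.09 (SE 0.06, 95% interval -0.04 to 0.21, edgeR adjusted p = 0.35). Set against Mfn1 inside each library, Mfn2 counts were 2.27, 2.31 and 2.44 times those of Mfn1 at the lowest, median and highest HF-named library and 1.95, 2.14 and 2.32 times in con-named. On the log2 scale this ratio was 0.12 higher in HF-named (SE 0.04), with 2 of 6 HF-named libraries above all con-named ones (exact permutation test, two-sided, p = 0.013, adjusted p = 0.0303 over 7 ratios). The call was lost in 7 of 12 sets without 1 library: HF-named 2 or 6, or con-named 1, 2, 3, 5 or 6.

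Turning to fission, Fis1 (ENSMUSG00000019054, chromosome 5, 136953275 to 136966234) encodes a small outer-membrane protein. It stood at 51.1, 52.7 and 56.0 CPM at the lowest, median and highest of the HF-named libraries, against 56.8, 59.1 and 62.7 CPM in con-named. All 6 HF-named libraries lay below all 6 con-named ones. The log2 fold change was -0.16 (SE 0.04, 95% interval -0.25 to -0.07, edgeR adjusted p = 0.0212), and the call was lost in 1 of 12 fits without 1 library (adjusted p = 0.0514 without HF-named 2).

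Transcript length moved with the direction of change over the whole table, which bears on Fis1. Median log2 fold changes were -0.09, -0.06, -0.02, 0.02 and 0.06 over 5 groups of genes of about equal size, ordered from short to long exon length. Fis1 (1714 exon bases) is in the shortest group, and Opa1 (7875), Mff (9757) and Polg (10742) are in the longest. With each library's length trend taken out, an alternative added after the data were seen, Fis1 had a log2 fold change of -0.08 (adjusted p = 0.244), Opa1 0.21 (adjusted p = 0.0438), Mfn2 0.21 (adjusted p = 0.0597) and Pink1 0.22 (adjusted p = 0.0551). With length and GC content both taken out, Opa1 was no longer called (0.19, adjusted p = 0.0544), Pink1 was (0.26, adjusted p = 0.0419), and Fis1 stood at -0.05 (adjusted p = 0.449). The 8 cardiomyocyte markers, from short to long, had log2 fold changes of 0.02 (Actc1, 1618 exon bases), -0.24 (Myl2, 1950 bases), -0.25 (Tnni3, 2063 bases), -0.06 (Pln, 2759 bases), 0.13 (Myh6, 6726 bases), -0.23 (Tnnt2, 7752 bases), 0.46 (Ryr2, 28790 bases) and 0.40 (Ttn, 116825 bases), and Actc1, Pln and Myh6 were not called. The part of transcript length in the Fis1 result beyond these values was not tested.

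Mff (ENSMUSG00000026150, chromosome 1, 82724890 to 82752394), the main outer-membrane receptor for DRP1, had 96.8, 105.5 and 106.9 CPM at the lowest, median and highest HF-named library, against 94.7, 98.7 and 101.4 CPM in con-named. A total of 5 HF-named libraries lay above all con-named ones, and HF-named 1 lay apart at the low end. For Mff the log2 fold change was 0.08 (SE 0.04, 95% interval -0.0018 to 0.17, edgeR adjusted p = 0.183). Inside each library, Mff had 1.84, 1.96 and 2.07 counts per Fis1 count (lowest, median, highest) in HF-named and 1.55, 1.65 and 1.73 in con-named, and all 6 HF-named values lay above all con-named ones. The log2 ratio was 0.24 higher, also past the threshold with any 1 library left out (SE 0.04, exact permutation p = 0.00217, the smallest that 6 against 6 can give, adjusted p = 0.00758 over 7 ratios). With the length trend taken out, the difference between the 2 genes' log2 fold changes was 0.11, against 0.24 without, and with length and GC content taken out it was 0.07.

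Dnm1l (ENSMUSG00000022789, chromosome 16, 16312230 to 16358959), the gene of DRP1, ranged over 115.8, 120.1 and 127.5 CPM (lowest, median, highest) in HF-named and 99.2, 112.0 and 119.0 CPM in con-named libraries. A total of 5 con-named libraries lay below all HF-named ones, and 3 HF-named libraries lay above all con-named ones. The Dnm1l estimate on the log2 scale was 0.12 (SE 0.05, 95% interval 0.01 to 0.22, edgeR adjusted p = 0.119). Relative to Opa1, Dnm1l counts were 0.539, 0.585 and 0.635 of those of Opa1 at the lowest, median and highest HF-named library, and 0.593, 0.635 and 0.689 in con-named. The log2 ratio was -0.12 (SE 0.05, exact permutation p = 0.026, adjusted p = 0.0455 over 7 ratios), and the call was lost in 9 of 12 sets without 1 library: HF-named 2, 4, 5 or 6, or con-named 1, 2, 3, 5 or 6. Dnm1l shares 243 exon bases (4.67%) with an antisense gene, Mff 195 with a processed transcript on the opposite strand, and Pink1 179 (6.70%) with 2 miRNA genes on its strand. The strand setting of counting is not given in the sources used here, so reads of antisense partners cannot be told apart.

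Pink1 (ENSMUSG00000028756, chromosome 4, 138313409 to 138326307), the kinase that labels damaged mitochondria, stood at 589.1, 672.2 and 731.5 CPM (lowest, median, highest) in HF-named, against 533.6, 612.7 and 631.5 CPM in con-named. A total of 4 HF-named libraries lay above all con-named ones and 2 con-named ones below all HF-named ones. Pink1 differed by 0.16 on the log2 scale (SE 0.06, 95% interval 0.02 to 0.29, edgeR adjusted p = 0.116). Without HF-named 3, its lowest HF-named library, the adjusted p was 0.0475.

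Polg (ENSMUSG00000039176, chromosome 7, 79446231 to 79466362), which encodes the catalytic subunit of the mtDNA polymerase, had 64.8, 74.8 and 80.9 CPM (lowest, median, highest) in HF-named and 61.9, 66.7 and 68.3 CPM in con-named libraries. HF-named 3 lay within the con-named range and the other 5 above it. In edgeR the log2 fold change of Polg was 0.16 (SE 0.05, 95% interval 0.05 to 0.27, adjusted p = 0.051, and 0.0101 without HF-named 3). DESeq2 called Polg with all libraries kept (0.16, adjusted p = 0.031). Polg shares 921 exon bases (8.57%) with Fanci on the opposite strand.

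Polrmt (ENSMUSG00000020329, chromosome 10, 79736123 to 79746581), the mitochondrial RNA polymerase gene, ranged over 31.1, 34.8 and 37.8 CPM in HF-named and 29.7, 31.7 and 35.3 CPM in con-named libraries (lowest, median, highest). In each group 2 libraries lay outside the other group's range. Polrmt differed by 0.13 on the log2 scale (SE 0.06, 95% interval 0.0019 to 0.25, edgeR adjusted p = 0.168). Tfam (ENSMUSG00000003923, chromosome 10, 71225464 to 71238280), the gene of the protein that coats mtDNA and starts its transcription, had 38.2, 40.6 and 45.1 CPM in HF-named and 35.9, 39.3 and 42.1 CPM in con-named libraries. The Tfam groups overlapped, with 2 HF-named libraries above all con-named ones and 2 con-named libraries below all HF-named ones. Its log2 fold change was 0.07 (SE 0.06, 95% interval -0.05 to 0.19, edgeR adjusted p = 0.427). Ratios between these genes did not pass: the log2 difference was -0.04 for Polrmt over Polg (exact permutation p = 0.528) and -0.05 for Tfam over Polrmt (exact permutation p = 0.465, adjusted p = 0.528). Across the 10 members, replicate 3 was lowest of HF-named for 6 and replicate 4 highest for 6, and replicate 5 was lowest of con-named for 7 and replicate 3 highest for 6. Leaving out HF-named 3 raised the members called to 5 (4 higher), with 2550 genes called over the whole table, against 2016 with all libraries. Leaving out HF-named 2, 4 or 5, or con-named 5 or 6, lowered the members called to 1, with 1355 to 1555 genes called in those fits.

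**Figure D2:**
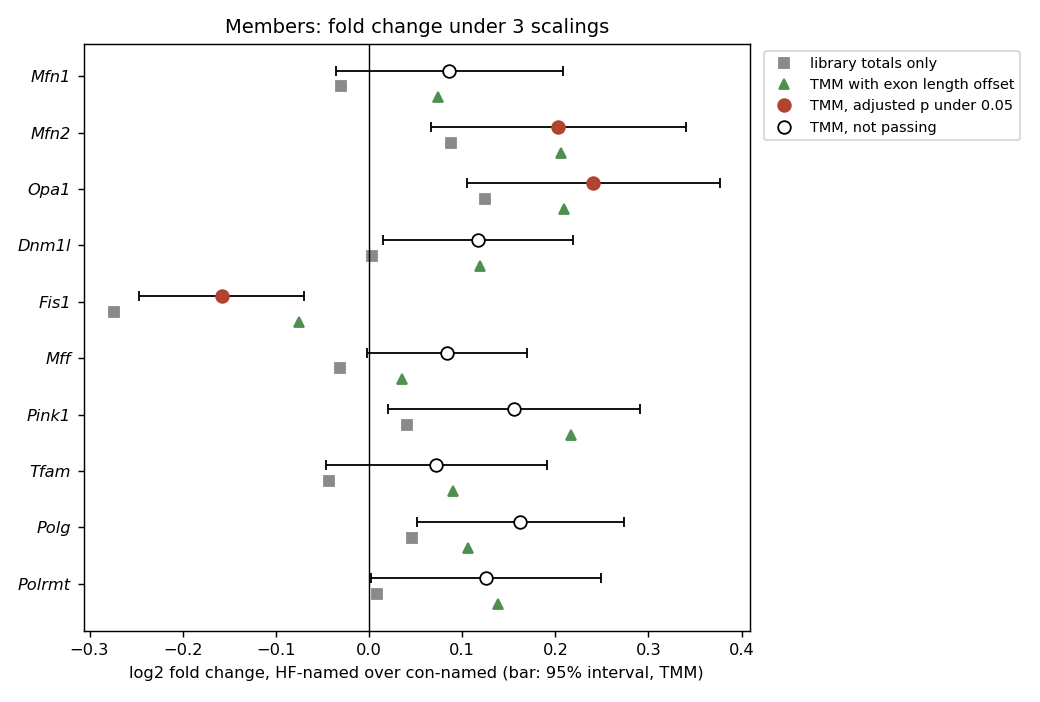
Log2 fold change of each member, HF-named over con-named, with its 95% interval under TMM (filled: adjusted p under 0.05), beside the same under library totals and with an exon length offset. Library totals shift every member lower, with Mfn1, Mff and Tfam below 0, and the length offset moves Fis1 to -0.08.

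**Figure D3:**
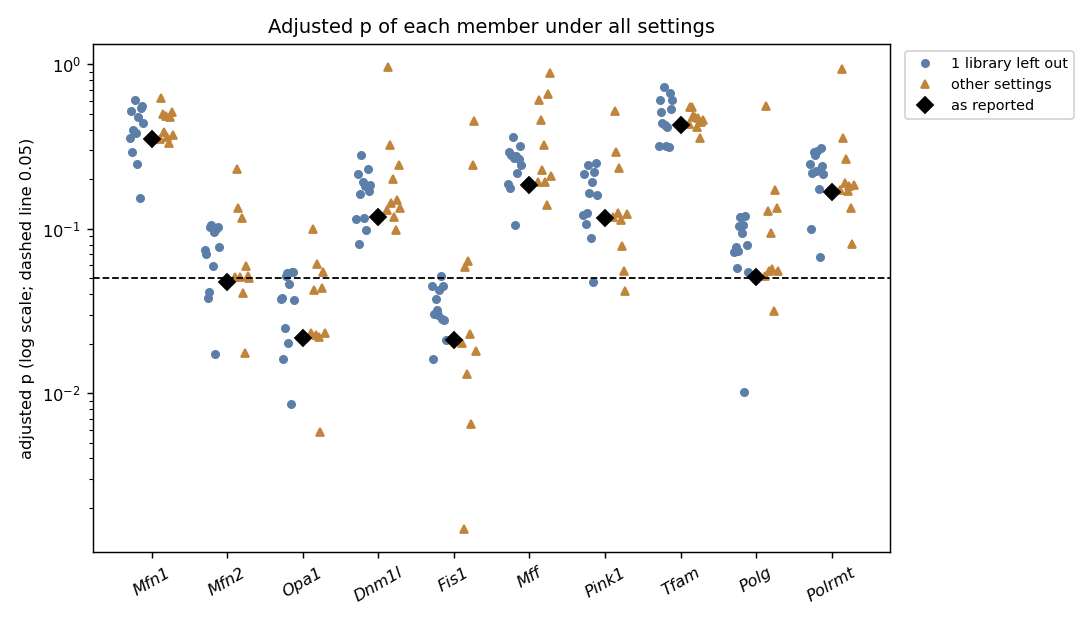
Adjusted p of each member on a log axis, as reported (diamond), with 1 library left out (circles) and under the other settings (triangles); the dashed line is 0.05. Fis1 and Opa1 pass in most settings, Mfn2 lies on both sides of the line, and Mfn1, Dnm1l, Mff, Tfam and Polrmt pass in none.

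Products of mtDNA itself were also measured. Counts of the 13 mRNAs encoded by mtDNA, summed, were 5667, 5856 and 6875 times those of Tfam at the lowest, median and highest HF-named library, against 4757, 5083 and 5318 times in con-named. All 6 HF-named values lay above all con-named ones. The log2 ratio was 0.24 higher, and passed with any 1 library left out (SE 0.05, exact permutation p = 0.00217, adjusted p = 0.00758 over 7 ratios). Against Polrmt the difference was 0.18 (SE 0.10, exact permutation p = 0.0996, adjusted p = 0.139), with 4 of 6 HF-named values above all con-named ones. It passed without HF-named 1 (adjusted p = 0.0424). Genes with the most counts weigh most in the sum. On average mt-Co1 gave 102030 of 247848 summed CPM in HF-named and 83236 of 200145 CPM in con-named libraries. The gene with the fewest counts, mt-Atp8, gave 33.6 CPM in HF-named and 18.3 CPM in con-named libraries. These values are reads counted, and whether all reads of each mRNA were counted was not tested. In the gene-wise fit 6 of the 13 mRNAs were higher and 0 lower (10 and 0 with an unadjusted p under 0.05; 6 and 0 called by limma-voom, 7 and 0 by DESeq2). The complex I gene mt-Nd5 (log2 fold change 0.48) had 20408, 25393 and 30422 CPM in HF-named and 15842, 18120 and 19899 CPM in con-named libraries (lowest, median, highest), without overlap. The others called were mt-Nd2 (0.46), mt-Nd6 (0.30), mt-Cytb (0.30), mt-Co1 (0.29) and mt-Nd4 (0.25). The call of mt-Co1 was lost without HF-named 2, 4 or 5 or con-named 3 or 5, and that of mt-Nd4 without HF-named 2, 4, 5 or 6 or con-named 2, 3, 4 or 5. The 2 uncalled genes with the most counts, mt-Co2 and mt-Nd1, had log2 fold changes of 0.03 and 0.20. The gene mt-Nd6 lies on the other strand from mt-Nd5 and overlaps its end, where reads cannot be told apart. As the strand setting of counting is not given, reads of opposite-strand RNA elsewhere in mt-Nd6 cannot be told apart either. The call of mt-Nd6 can thus not be assigned to its own strand.

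**Figure D4:**
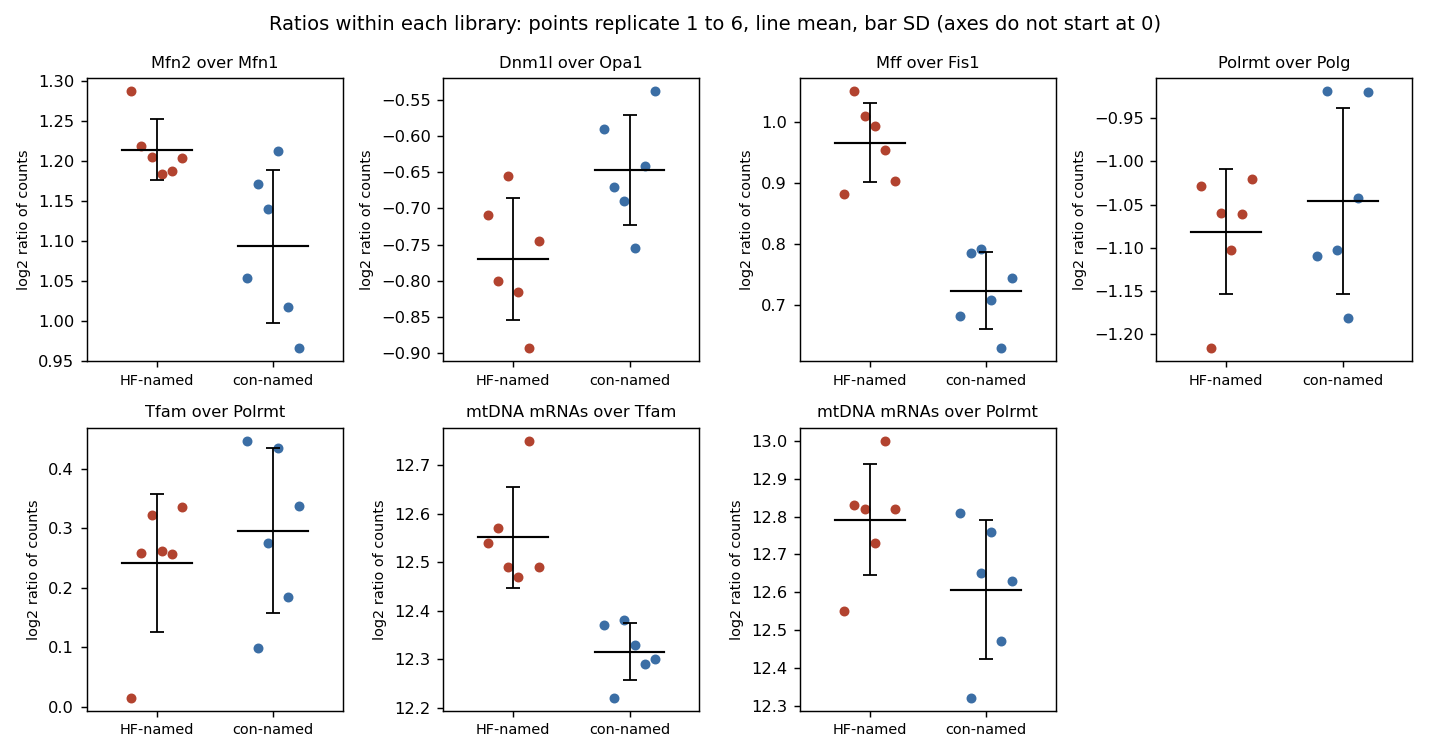
Log2 ratio of counts within each library for the 7 ratios, HF-named left and con-named right, points in replicate order 1 to 6, line mean and bar SD. Mff over Fis1 and mtDNA mRNAs over Tfam do not overlap between groups.

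Other genes of these pathways were read from gene lists. Over 118 tested partners 12 were higher and 4 lower, so 13.6% were called, near the 13.3% of all genes (8.28% higher, 5.05% lower). The median log2 fold change was 0.04 for the partners and -0.01 for all genes. Under library totals 5 partners were higher and 20 lower, beside 483 and 2582 of all genes. Afg3l2, Tax1bp1, Lig3, Rrm2b, Tfb2m, Esrrg and Yy1 then lost their calls (edgeR adjusted p 0.059 to 0.1885). Akap1, Bnip3, Lrpprc, Ppara, Ppargc1a and the 4 lower partners kept theirs. With the length trend taken out, Slc25a4 (adjusted p = 0.104) and Esrrg (0.056) lost their calls. Without HF-named 3 the number of partners higher was 22, beside 1581 of all genes, against 1252 with all libraries. Among 22 fusion and inner-membrane partners, 1 was higher and 1 lower. Afg3l2, a subunit of the m-AAA protease of the inner membrane, had 159.0, 169.2 and 182.1 CPM (lowest, median, highest) in HF-named and 138.1, 145.3 and 157.0 CPM in con-named libraries, without overlap (log2 fold change 0.21, SE 0.05, edgeR adjusted p = 0.00871). The one lower, 2410015M20Rik, a MICOS subunit gene now named Micos13, had 54.0, 60.0 and 63.0 CPM in HF-named and 63.5, 71.4 and 79.1 CPM in con-named libraries (log2 fold change -0.26, edgeR adjusted p = 0.00727). Immt and Chchd3, the most abundant uncalled ones, had log2 fold changes of 0.14 and 0.05.

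Of 13 fission partners, Akap1 was called higher (0.40 on the log2 scale, SE 0.08, edgeR adjusted p = 0.00377). It had 177.0, 199.8 and 226.6 CPM in HF-named and 123.8, 152.9 and 166.6 CPM in con-named libraries, without overlap. Akap1 encodes an anchor that holds protein kinase A at the outer membrane, where that kinase inhibits DRP1. Mtfr1l (0.02) and Prkaca (-0.01), its most abundant uncalled members, did not pass. In mitophagy, 2 of 23 were higher and 1 lower: the receptor gene Bnip3 (log2 fold change 0.55, edgeR adjusted p = 0.00606), the autophagy receptor gene Tax1bp1 (0.22, adjusted p = 0.00653) and Fkbp8 (-0.21, adjusted p = 0.00406). Bnip3 ranged over 99.7, 131.1 and 155.2 CPM in HF-named and 68.8, 88.1 and 112.1 CPM in con-named libraries and overlapped, while the 6 HF-named values of Fkbp8 lay below all con-named ones. Vdac1 (0.16) and Nipsnap2 (0.17) did not pass.

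Genes of mtDNA replication, packing and nucleotide supply had 2 of 24 higher and 1 lower. Lig3, the DNA ligase used in mitochondria, had a log2 fold change of 0.35 (edgeR adjusted p = 0.0165), Rrm2b, a ribonucleotide reductase subunit, 0.28 (adjusted p = 0.0144) and Slc25a4, the heart isoform of the ADP/ATP carrier, -0.23 (adjusted p = 0.0253). Slc25a4 lost its call without HF-named 1, 2 or 4. Sucla2 (0.11) and Suclg1 (-0.02) did not pass. For transcription and transcript stability, Lrpprc (0.28, adjusted p = 0.00831), which stabilises mitochondrial mRNAs, and Tfb2m (0.30, adjusted p = 0.0288), the partner of POLRMT in initiation, were higher, and Hsd17b10 (-0.30, adjusted p = 0.00268), a subunit of mitochondrial RNase P, was lower, of 25 tested. Tfb2m held in 4 of 12 fits without 1 library, and lost its call without HF-named 1, 4 or 5 or con-named 2, 3, 4, 5 or 6. Among 11 regulators of mitochondrial biogenesis, 4 were higher and 0 lower in edgeR, limma-voom and DESeq2 (5 and 0 with an unadjusted p under 0.05): Ppara (0.57, adjusted p = 0.00905), Ppargc1a (0.35, adjusted p = 0.025), Esrrg (0.28, adjusted p = 0.0405) and Yy1 (0.22, adjusted p = 0.00708). Ppargc1a lost its call without HF-named 2, 4 or 5 or con-named 2, 5 or 6, and Esrrg kept it in 2 of 12 such fits, those without HF-named 3 or con-named 3. Gabpa (0.12) and Esrra (-0.03) did not pass.

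**Figure D5:**
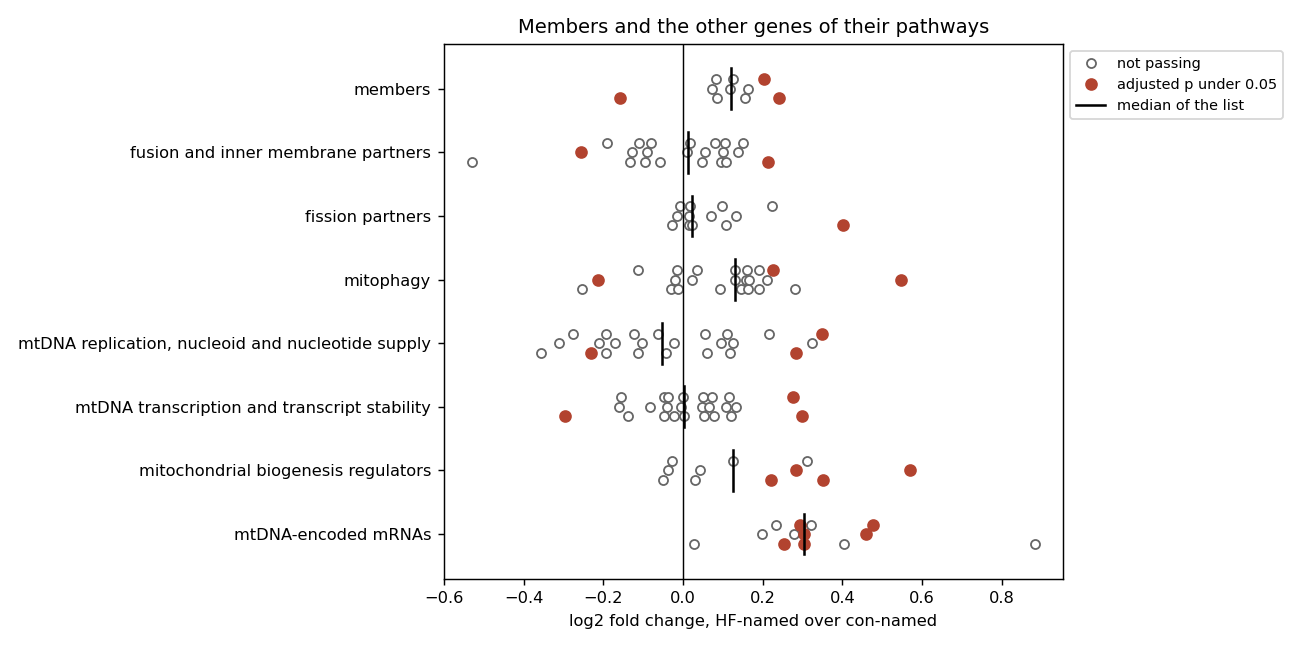
Log2 fold change of each tested member and pathway partner, HF-named over con-named, by list, filled where the adjusted p is under 0.05, with a line at each list's median. The median is 0.12 for the members and 0.30 for the mtDNA-encoded mRNAs, and lies between -0.05 and 0.13 for the other lists under TMM. Under library totals the medians of the fusion, fission and transcription partners fall below 0.

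Levels between genes were compared on the FPKM scale, which divides by exon length. That length joins all annotated exons of a gene (10742 bases for Polg, 4685 for Polrmt) and can exceed the length of the transcripts present. The order below therefore holds for this divisor only. Pink1 was highest, with a median of 240.4 FPKM in HF-named and 230.8 FPKM in con-named libraries, followed by Mfn2 (166.8 FPKM in HF-named, 157.0 in con-named) and Mfn1 (61.4 in HF-named, 61.9 in con-named). Fis1 (29.7 FPKM in HF-named, 35.5 in con-named), Opa1 (25.2 in HF-named, 23.0 in con-named) and Dnm1l (22.5 in HF-named, 22.1 in con-named) came next. Mff (10.2 FPKM in HF-named, 10.5 in con-named), Tfam (8.72 in HF-named, 9.24 in con-named), Polrmt (6.95 in HF-named, 7.01 in con-named) and Polg (6.59 in HF-named, 6.46 in con-named) were lowest. Neighbours in this order did not overlap in range within a group, except Polrmt and Polg in both groups and Opa1 and Dnm1l in con-named. FPKM is divided by library totals, so its differences between groups carry the whole shift under library totals given above, not the mitochondrial share alone.

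Over the 12 libraries, the gene most like Opa1 was Mfn2, by root mean square distance of centred log2 CPM (0.036), and those most like Mfn2 were Nek9 (0.032) and Abtb2 (0.035), with Opa1 at rank 3 (0.036). The gene most like Fis1 was Eif3k (0.032), then Atp5h (0.033), and its nearest member, Mff, was at rank 3113 with 0.134. Slc25a12 and Tmem201 were nearest to Mfn1, Capza2 and Arl8b to Dnm1l, Tmed2 and Phf14 to Mff, Furin to Pink1, Bfar and Prmt5 to Tfam, Rnf20 and Uso1 to Polg, and Sike1 and Manba to Polrmt, at distances of 0.023 (Capza2) to 0.058 (Manba). The nearest other member was Pink1 for Mfn1 (0.046), Mff for Dnm1l (0.056), Dnm1l for Tfam (0.063) and Polrmt for Polg (0.085). The median distance of all genes was 0.184 to 0.246 by member. This is a description, and points share libraries and depth.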

How the data were processed

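Raw read counts per gene, as the authors deposited them, were compared between 6 HF-named and 6 con-named libraries, grouped by the library name in the labels. The tools HISAT2 2.0.5, HTSeq 0.9.1 and cutadapt 1.15 and the build mm10 are listed, without role or order, per the submitters' processing notes. The deposited FPKM values equal counts over library total and GENCODE M21 exon length. The comparison table deposited by the authors holds a signal (mean scaled count per group), log2 fold changes and p-values.

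Genes were filtered with edgeR's filterByExpr, TMM-scaled and compared by its quasi-likelihood test (R 4.3.3, edgeR 4.0.16, limma 3.58.1), two-sided, group as the only term. Each SE is the size of the log2 fold change over the root of F. Totals ran from 14443186 to 22048689 counts per library, so 3 counts are 0.142 to 0.217 CPM. Same-group libraries differed beyond sampling noise in all 30 pairs (chi-square per degree of freedom 4.02 to 16.3). Exact permutation tests of ratios used log2((count + 0.5)/(count + 0.5)) over 924 splits, adjusted over 7 ratios. Named genes were all members, the called genes of each pathway list with the 2 most abundant uncalled, the 2 most abundant tested genes of each marker list and, for likeness, the 2 nearest genes to each member, of which 1 is not reported here. The other marker genes named were chosen after their values were seen. Members and lists were chosen with earlier results of these data known. The older symbol used for Micos13 was corrected against RefSeq after values were seen, which added 1 gene to the calls. Alternatives were RLE or library totals, other filters, a replicate block, limma-voom, DESeq2 1.42.0, a fit without mitochondrial transcripts, 12 fits without 1 library and, added after the data were seen, offsets from per-library splines (5 degrees of freedom) on exon length, alone or with GC content. Steps were tested on simulated data.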

Additional observations from a re-analysis of the deposited data

Results flagged for a closer look

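Among 36 sets of values within a group, of members, ratios and the mitochondrial share of counts, 4 held a library far from its group's other values, measured as its gap to the nearest value over the group's range. Chance flags about 1 in 20 such sets. Mff in HF-named 1 had 96.76 CPM, against 104.7 CPM in the next lowest HF-named library. The log2 ratio of Mfn2 over Mfn1 was 1.287 in HF-named 1, the highest of its group, with the next at 1.219. For Tfam over Polrmt the log2 ratio was 0.01512 in HF-named 1, the lowest of its group, with the next at 0.2565. The log2 ratio of mtDNA mRNAs over Tfam was 12.75 in HF-named 5, the highest of its group, with the next at 12.57. The cause was not tested.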

How the results depend on the processing

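Members called, 3 as reported (2 higher, 1 lower), came to 2 (1 higher, Opa1, and 1 lower, Fis1) under RLE, under a filter of 1 CPM in 6 libraries and without mitochondrially encoded transcripts. Library totals gave 1 member (0 higher), 3065 genes in all (483 higher, 2582 lower), and 5 higher and 20 lower partners. With no filter beyond 1 count, 1 member was called (1 higher, 0 lower) and 3 mtDNA mRNAs, beside 1562 genes in all. Offsets for exon length, and for length with GC content, each called 1 member (1 higher, 0 lower), Opa1 under the first and Pink1 under the second. Over the whole table these offsets called 1594 genes (1093 higher, 501 lower) and 1561 genes (1074 higher, 487 lower). Fits without 1 library called 1 to 5 members (0 to 4 higher, 0 to 1 lower) and 9 to 22 partners higher. Over the whole table these fits called 1355 to 2550 genes, with 836 to 1581 higher and 500 (without HF-named 4) to 969 lower.

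The replicate block called 1131 genes (748 higher, 383 lower), 0 members (0 higher, 0 lower, and 4 with an unadjusted p under 0.05) and 3 mtDNA mRNAs. Without the block, limma-voom called 3 members, with 2062 genes in all. DESeq2 called 4 members, Polg among them, with 2360 genes in all. Same-numbered libraries correlated by -0.161 to 0.090, and 1 of 6 matched best with its own number. The labels give the numbers without a meaning, so whether they mark pairs or batches is not known.

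Across fits without 1 library, the log2 ratio of Mfn2 over Mfn1 ran from 0.10 to 0.14, Dnm1l over Opa1 from -0.15 to -0.10 and mtDNA mRNAs over Polrmt from 0.12 to 0.23. Reversed log2 fold changes under library totals were Mfn1 -0.030, Mff -0.031, Tfam -0.043, Chchd3 -0.060, Mtfr1l -0.098, Sucla2 -0.0051 and mt-Co2 -0.093. Fastk was 0.042 with length and GC taken out, and Prkaca 0.051 with length and 0.079 with both. Without 1 library Mtfr1l ran from -0.016 to 0.036, Prkaca from -0.051 to 0.0088, Suclg1 from -0.073 to 0.015 and mt-Co2 from -0.22 to 0.22. The causes were not tested. Counting error alone was 3.40% for Fis1 in HF-named and 3.10% in con-named libraries, beside a coefficient of variation of 3.44% in HF-named and 3.52% in con-named libraries. For Opa1 it was 1.73% beside 7.99% in HF-named and 1.81% beside 8.24% in con-named libraries.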
